A study of Mus musculus with 18 samples.

Results

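The Cyp2 and Cyp3a genes encode microsomal cytochromes P450, and 53 of them were described here in mouse liver. They were taken by symbol from the annotation of the array, as every name that starts with Cyp2 and a lower-case letter or with Cyp3a, without pseudogenes named -ps. Each of the 53 symbols was carried by 1 transcript cluster, the array's unit for 1 gene, out of 65956 clusters tested. Cyp2w1, Cyp2t4 and Cyp2ab1 fit this rule and were kept. Cyp2d13 was kept by its symbol, although RefSeq lists it as a transcribed pseudogene. A further 5 clusters list more than 1 symbol, such as Cyp2a5 with Cyp2a4, and were given as shared clusters without being counted as members.

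Livers came from male C57BL/6J mice, about 4 weeks old when the diets began, at ZT6 in the light phase and ZT18 in the dark phase, where ZT counts the hours from lights on. CD mice ate normal chow. The description of the design gives saline to all mice without NAD+, whereas the labels and methods do not say whether CD mice were injected. HF and HFN mice ate a high-fat diet with 53% of its calories from fat for 8 weeks and then for 3 more weeks of daily intraperitoneal injections at ZT11, which were saline in HF mice and 50 mg/kg NAD+ in HFN mice. NAD+ is a coenzyme of redox reactions and the substrate of sirtuins. All mice were kept under cycles of 12 h light and 12 h dark and ate freely. Each of the 6 groups had 3 mice that the labels call biological replicates, with 1 liver per array, so that the comparisons asked how the diet, NAD+ and the time of day related to these transcripts. An exact permutation test of 3 livers against 3 cannot give a two-sided p below 0.1. The groups were therefore compared with limma, a linear model fitted over all clusters, and a transcript was called when p after Benjamini-Hochberg adjustment over all clusters was under 0.05 and the log2 difference was over 0.32 either way, the minimum fold change of the study on the log2 scale.

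Cytochromes P450 of these families insert 1 oxygen atom into lipophilic substrates and make drugs, steroids and fatty acids more soluble. They sit in the endoplasmic reticulum and take electrons from the reductase POR. In liver, the nuclear receptors PXR (Nr1i2) and CAR (Nr1i3) switch many of them on when foreign compounds arrive, and growth hormone sets which members males and females express. Several arose by repeated duplication, so that neighbours in the Cyp2a, Cyp2b, Cyp2c, Cyp2d, Cyp2j and Cyp3a clusters are close in sequence.

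That closeness is shown by the 120 bases before the start of members that differed between the diets and of their nearest copies, read 5′ to 3′ from the RefSeq annotation of GRCm38.p6, with CAAAGTCCA, a form of the binding site of HNF4, in capitals.
Cyp3a11 (chr5:145879855-145879974, minus strand): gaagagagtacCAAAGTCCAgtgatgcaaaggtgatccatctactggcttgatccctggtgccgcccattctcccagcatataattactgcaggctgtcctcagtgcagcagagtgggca
Cyp3a16 (chr5:145469724-145469843, minus strand): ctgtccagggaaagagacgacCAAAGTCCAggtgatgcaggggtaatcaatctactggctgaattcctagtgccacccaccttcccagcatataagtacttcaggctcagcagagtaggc
Cyp3a41a (chr5:145720137-145720256, minus strand): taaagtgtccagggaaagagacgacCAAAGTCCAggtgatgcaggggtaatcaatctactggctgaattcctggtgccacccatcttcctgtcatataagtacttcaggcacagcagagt
Cyp3a44 (chr5:145805875-145805994, minus strand): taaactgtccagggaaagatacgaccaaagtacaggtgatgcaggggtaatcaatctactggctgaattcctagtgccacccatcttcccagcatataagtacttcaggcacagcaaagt
Cyp2c70 (chr19:40187287-40187406, minus strand): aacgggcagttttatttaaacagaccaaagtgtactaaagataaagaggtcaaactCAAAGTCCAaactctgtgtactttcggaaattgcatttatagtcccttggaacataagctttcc
Cyp2a4 (chr7:26307072-26307191, plus strand): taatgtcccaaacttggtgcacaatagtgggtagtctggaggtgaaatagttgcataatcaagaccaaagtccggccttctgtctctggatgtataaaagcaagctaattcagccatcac
Cyp2a5 (chr7:26835219-26835338, plus strand): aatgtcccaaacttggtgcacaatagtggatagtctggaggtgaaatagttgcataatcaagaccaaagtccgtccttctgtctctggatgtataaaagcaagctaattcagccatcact
Over the full 300 bases, from 250 before the start to 50 after it, the windows of Cyp2a4 and Cyp2a5 were 98.0% identical, those of Cyp3a16 and Cyp3a44 94.7%, and those of Cyp3a25 and Cyp3a59 96.3%. Of 1225 pairs of genes, 12 reached 90%. RefSeq held such a window for 45 of the 53 members. CAAAGTCCA lay on either strand in 8 of the 45 and in 0.555% of all 27025 genes with a window. The 8 were Cyp2c40, Cyp2c65, Cyp2c67, Cyp2c68, Cyp2c69, Cyp2c70, Cyp3a11 and Cyp3a16. Of 9 windows of members that were lower under the high-fat diets, 3 held it, those of Cyp2c70, Cyp3a11 and Cyp3a16. Those of Cyp3a25 and Cyp3a59, not printed here, did not. The first base of CAAAGTCCA lay at position -109 in Cyp3a11, -99 in Cyp3a16 and -64 in Cyp2c70, counted from -1 as the last base before the start.

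Another 10 motifs were searched in the same windows on both strands, some of which overlap, such as AGGTCA within AAAGGTCA. TATAAA lay in 21 of 45 members and in 15.7% of all genes, AGGTCA in 16 and 18.1%, TTGCNNAA in 13 and 12.2%, and AGTTCA in 6 and 15.7%. GTTAAT was found in 5 members and 8.24% of genes, AAAGGTCA in 4 and 1.7%, TTCNNNGAA in 2 and 9.55%, and CACGTG in 1 and 8.09%. Of the 9 windows of members that were lower under the high-fat diets, AGGTCA lay in 7, TATAAA in 6 and AAAGGTCA in 3. In the same 9 windows TTGCNNAA lay in 2, AGTTCA and GTTAAT in 1 each, and TTCNNNGAA and CACGTG in 0. The D-box letters TTATGTAA and TTACGTAA, read by Dbp and Tef, were in none of the 45 members' windows and in 1.11% and 0.126% of all genes. For the D-box only these exact letters were searched, and at such low shares their absence from 45 windows does not show a lack of sites. These matches describe letters in a window and not bound sites. Arrays measure the RNA by probes, and how far probes of near-identical genes read each other's transcripts was not tested.

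The tissue carried the markers of hepatocytes. Alb, which encodes albumin, was at the ceiling of the log2 scale, 19.9315, on all 18 arrays. In contrast, 5 pancreatic acinar genes averaged 5.09 in HFN ZT18 replicate 1 and 4.43 to 4.58 on every other array. The array medians lay between 4.29 and 4.42. The median of 5222 negative-control probe sets was 4.91 to 5.01 on 5 arrays (CD ZT6 replicate 3, HF ZT6 replicates 2 and 3, CD ZT18 replicates 2 and 3) and 4.58 to 4.76 on the other 13. Of these 5, 3 are CD and 2 are HF arrays, and the calls between diets are also given without them. Among cell type markers, 4 adipocyte genes averaged 6.97 in HFN ZT18 replicate 1 and 4.45 to 4.76 on every other array. In whole liver, fewer cells of a type and less RNA per cell cannot be told apart.

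Of the 53 members, 32 lay above the 95th percentile of the negative controls on all 18 arrays, 5 on some arrays and 16 on none. That percentile was 7.66 to 8.70 among the arrays. The Cyp2d and Cyp2a members, among them steroid hydroxylases, were all in the first set, with means over the 18 arrays of 18.61 for Cyp2d9, 10.50 for Cyp2d34, 18.79 for Cyp2a12 and 14.17 for Cyp2a4. So were 10 of the 14 Cyp2c members and 6 of the 7 Cyp3a members. Cyp2c50 had a mean of 18.66 and Cyp2c66, on no array above the percentile, one of 4.53. In the Cyp2j family, whose members epoxidise arachidonic acid, Cyp2j5 had 17.27 and Cyp2j11 3.91. Cyp2f2, Cyp2r1, a vitamin D 25-hydroxylase, and Cyp2u1 had means of 18.94, 10.34 and 8.97. All 5 Cyp2b members stayed below the percentile, from 4.73 for Cyp2b10, the classical target of CAR, to 3.93 for Cyp2b23. The same held for Cyp2s1 (4.34), Cyp2g1 (4.25), Cyp2w1 (4.10), Cyp2ab1 (3.96) and Cyp2t4 (3.60). Signals of different genes come from different probes, and their order is not an order of RNA amounts.

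**Figure D1:**
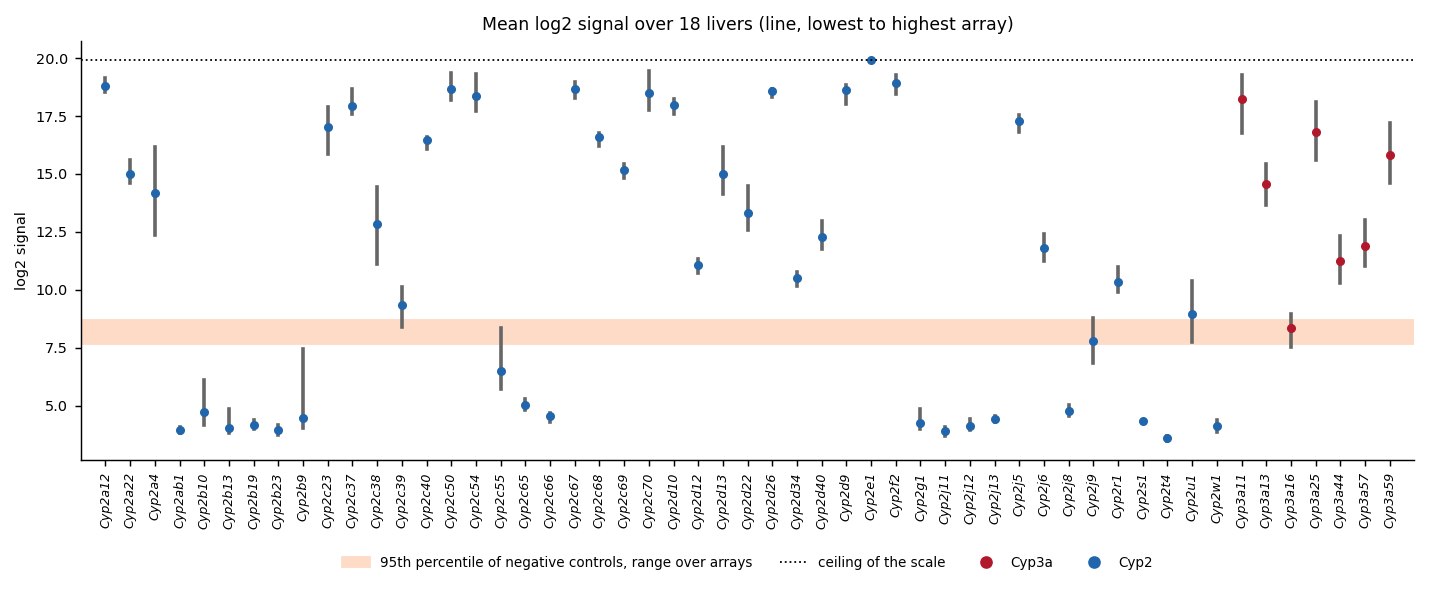
Log2 signal of the 53 cytochromes, ordered by family, with the mean over 18 livers as a point, the lowest to the highest array as a line, and the 95th percentile of the negative controls (7.66 to 8.70 over the arrays) as a band. Cyp2e1 lies on the dotted ceiling, and 16 members lie below the band on every array.

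Cyp2e1, the cytochrome that oxidises ethanol and acetaminophen, was the only member at the ceiling. Its 18 arrays had 1 value, which leaves no measurable difference between any groups. Below the ceiling, some members also repeated a value on several arrays. The same value to 4 decimals stood on at least 3 arrays in 14 of the 53 members and in 0.861% of all clusters. With the clusters limited to means over 16, the counts were 10 of 17 members and 45.8% of 744 clusters. Cyp2c50 read 18.65, Cyp2c37 17.90, Cyp2d10 17.97 and Cyp2d12 11.05 on 8 arrays each. Low signals were not exempt, since Cyp2c66 read 4.52 on 5 arrays. How the values came to be equal was not tested, and small differences in these members are bounded by it.

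High-fat-fed livers had lower signals of most Cyp3a members, of Cyp2a4 and of 4 Cyp2c members. With HF and HFN pooled against CD over both times, 11 of the 53 members were lower and 0 were higher, where 0.999% of all clusters were called either way and 0.25% were called lower. The 11 were Cyp3a11, Cyp3a16, Cyp3a25, Cyp3a44, Cyp3a57, Cyp3a59, Cyp2a4, Cyp2c23, Cyp2c54, Cyp2c55 and Cyp2c70. By family they were 6 of 7 Cyp3a, 4 of 14 Cyp2c and 1 of 3 Cyp2a members. The count was 0 of 8 Cyp2d, 0 of 7 Cyp2j and 0 of 5 Cyp2b members. However, 0 of the 5 Cyp2b and 2 of the 7 Cyp2j members lay above the negative-control percentile on all arrays. All 8 Cyp2d members did, but Cyp2d9, Cyp2d10, Cyp2d12 and Cyp2d26 each repeated a value on 4 to 8 arrays. The counts of 0 therefore do not show that these families were unchanged. In total 40 members had a difference below 0 and 12 above 0, with a median of -0.13 (log2) against 0.01 over all clusters. The Cyp3a median was -0.89 and the Cyp2d median -0.17. On the assembly of RefSeq, chromosome 5 holds 8 members in the order Cyp3a13, Cyp2w1, Cyp3a57, Cyp3a16, Cyp3a44, Cyp3a11, Cyp3a25 and Cyp3a59, and the last 6 of them are the Cyp3a members that were lower.

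**Figure D2:**
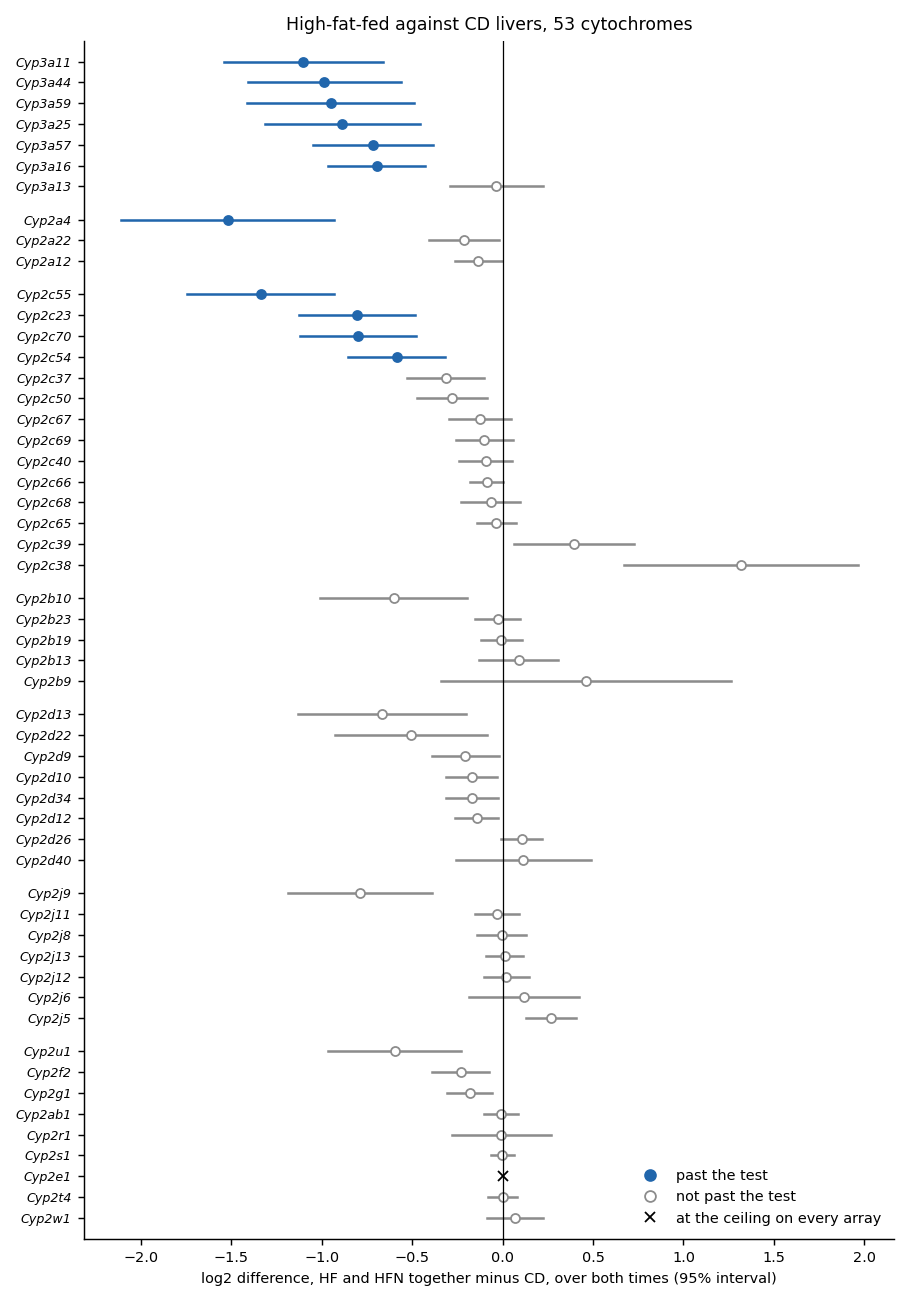
Log2 difference of HF and HFN livers together minus CD livers over both times for each of the 53 cytochromes, grouped by family, with the 95% interval as a line. Filled points mark the 11 members past the test, all left of 0, and a cross marks Cyp2e1, whose value was at the ceiling on every array.

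Cyp3a11, the main mouse counterpart of human CYP3A4 and a PXR target, read 19.29, 18.88 and 18.64 in the CD livers at ZT6 and 18.88, 19.07 and 18.94 at ZT18. In HF livers it read 18.04, 17.76 and 17.79 at ZT6 and 17.72, 18.42 and 18.36 at ZT18. HFN livers gave 17.94, 18.10 and 18.09 at ZT6 and 16.77, 16.80 and 18.41 at ZT18. Every one of the 12 high-fat livers lay below every one of the 6 CD livers. The difference was -1.10 (SE 0.20, 2.15-fold, adjusted p = 0.0148 from limma).

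The same order, with all 12 high-fat livers below all 6 CD livers, held for 4 members, Cyp2a4, Cyp2c54, Cyp2c55 and Cyp3a11, and for 0.05% of all clusters. Cyp2a4, a steroid 15-alpha-hydroxylase that female mice express more, read 15.29, 14.67 and 14.99 in CD livers at ZT6 and 15.45, 16.18 and 14.52 at ZT18. HF livers gave 13.33, 14.18 and 13.74 at ZT6 and 12.86, 14.29 and 13.45 at ZT18. HFN livers gave 14.17, 13.91 and 14.23 at ZT6 and 12.35, 13.64 and 13.79 at ZT18. The highest of the high-fat livers, HF ZT18 replicate 2 at 14.29, lay below the lowest CD liver at 14.52. The difference was -1.52 (SE 0.28, 2.87-fold, adjusted p = 0.013 from limma). The cluster shared by Cyp2a5, the coumarin 7-hydroxylase, and Cyp2a4 gave -1.55 (SE 0.27, adjusted p = 0.0115). Which of these near-identical genes gave the signal cannot be told apart here.

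Cyp2c55, which hydroxylates arachidonic acid and responds to CAR and PXR ligands, had the lowest adjusted p of the members. It read 8.33, 8.34 and 6.99 in CD livers at ZT6 and 6.80, 7.48 and 6.40 at ZT18, and 5.70 to 6.25 with a median of 6.07 in the 12 high-fat livers. Only the 2 CD livers at 8.33 and 8.34 stood above the 95th percentile of the negative controls, and all high-fat livers lay below it. The difference was -1.34 (SE 0.19, adjusted p = 0.0022). No fold change is given, since the CD mean of 7.39 was itself below the mean percentile of 7.99 on the high-fat arrays. Cyp2c54 had 18.36, 18.73 and 19.31 as the lowest, median and highest of the CD livers and 17.72, 18.25 and 18.36 in the high-fat livers. Its difference was -0.59 (SE 0.12, adjusted p = 0.0337).

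Cyp2c70, the enzyme that makes muricholic acids from bile acids in mice, ranged from 18.39 to 19.45 with a median of 19.12 in CD livers and from 17.75 to 18.60 with a median of 18.26 in high-fat livers. The groups overlapped, through CD ZT6 replicate 3 at 18.39. The difference was -0.80 (SE 0.15, adjusted p = 0.0156). Cyp2c23, formerly Cyp2c44, an arachidonic acid epoxygenase, ranged from 17.21 to 17.89 in CD and from 15.85 to 17.90 in high-fat livers, which overlap. Its difference was -0.81 (SE 0.15, adjusted p = 0.0148). The cluster shared by Cyp2c29 and Cyp2c53-ps, the first of which is a CAR target, was lower by the same test (-0.74, SE 0.10, adjusted p = 0.00122).

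**Figure D3:**
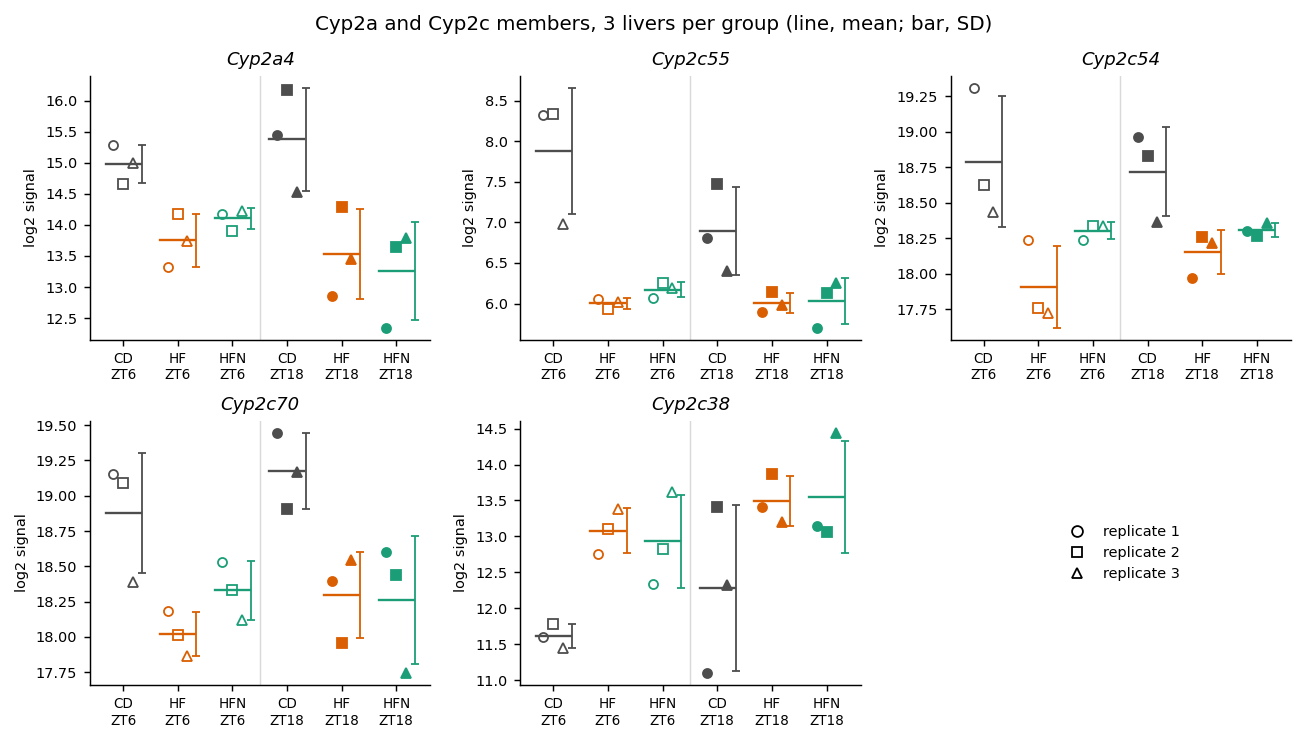
Log2 signal of Cyp2a4, Cyp2c55, Cyp2c54, Cyp2c70 and Cyp2c38 in each of 3 livers per group, with symbols for the replicate, open at ZT6 and filled at ZT18, the mean as a line and the SD as a bar. The high-fat livers lie below all CD livers for Cyp2a4, Cyp2c55 and Cyp2c54, and Cyp2c38 points the other way.

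Another 5 Cyp3a members were lower, with differences of -0.70 to -0.98. Cyp3a16, a fetal and female form, had 8.57, 8.86 and 8.97 as the lowest, median and highest of the CD livers and 7.55, 8.14 and 8.59 in the high-fat livers, which overlap (-0.70, SE 0.12, adjusted p = 0.012). Cyp3a44, another form that females express more, had 11.31, 11.92 and 12.34 against 10.27, 10.96 and 11.65 (-0.98, SE 0.20, adjusted p = 0.0253). For Cyp3a25 they were 16.94, 17.38 and 18.12 against 15.60, 16.61 and 17.32 (-0.89, SE 0.20, adjusted p = 0.0468). Cyp3a57 and Cyp3a59 gave -0.72 (SE 0.15, adjusted p = 0.037) and -0.95 (SE 0.22, adjusted p = 0.0476), and their CD and high-fat livers overlapped too. The 2 clusters shared by Cyp3a41a and Cyp3a41b, whose promoter is printed above, were lower too, at -1.10 and -1.13 (adjusted p = 0.0129 and 0.0144). Cyp3a13, the exception, read 14.06 to 15.06 in CD and 13.68 to 15.45 in high-fat livers, a difference of -0.03 (95% interval -0.30 to 0.23 from limma).

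**Figure D4:**
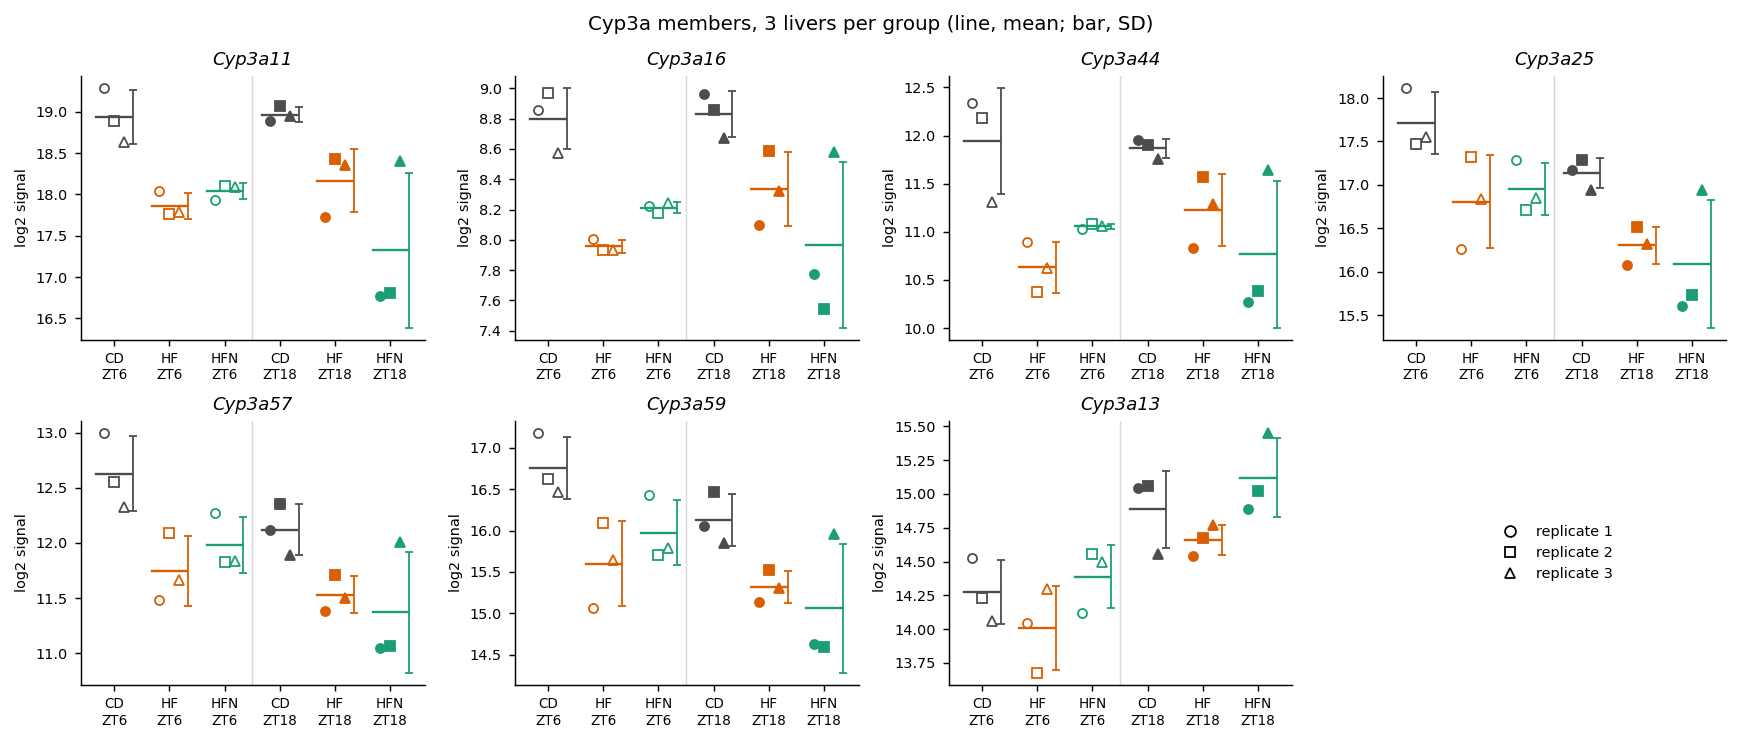
Log2 signal of the 7 Cyp3a members in each of 3 livers per group, with symbols for the replicate, open at ZT6 and filled at ZT18, the mean as a line and the SD as a bar. HFN ZT18 replicate 3 lies 0.81 to 1.60 above the higher of replicates 1 and 2 in 6 members, and Cyp3a13 is the member that did not pass between the diets.

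Within HFN livers at ZT18 the Cyp3a members were split by animal. Cyp3a25 read 15.60, 15.74 and 16.94 in replicates 1, 2 and 3, Cyp3a44 10.27, 10.38 and 11.65, Cyp3a16 7.77, 7.55 and 8.58, and Cyp3a59 14.63, 14.59 and 15.96. In each of these, replicates 1 and 2 were close together and replicate 3 lay within the range of the HF livers at ZT18 or above it. The same replicate 3 held the highest value of all 18 arrays in Cyp3a13 (15.45), Cyp2c38 (14.44) and Cyp2b9 (7.44), a form that females express more and that read 4.02 to 5.88 elsewhere. Replicate 1, with the highest adipocyte and pancreatic means, held the lowest values of all arrays in Cyp2a4, Cyp3a11, Cyp3a44 and Cyp2u1. Replicate 2, with an adipocyte mean of 4.67, gave Cyp3a values close to those of replicate 1. The part of adipose or pancreatic RNA in the values of these livers was not tested.

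No member passed the test as higher, although Cyp2c38 did so under quantile normalization, with brighter clusters only, with the replicate block and with the negative-control covariate. Cyp2c38 was also called without HFN ZT6 replicate 1, CD ZT18 replicate 2 or HFN ZT18 replicate 1, and Cyp2j5 without CD ZT6 replicate 1. Cyp2c38, which metabolises arachidonic acid and is close to Cyp2c39, came nearest, with 11.10, 11.69 and 13.41 as the lowest, median and highest of the CD livers and 12.34, 13.17 and 14.44 in the high-fat livers. These overlap through CD ZT18 replicate 2 at 13.41. The difference was 1.32 (SE 0.30, adjusted p = 0.0511 from limma). Cyp2j5 gave 0.27 (SE 0.06, adjusted p = 0.0618) and Cyp2j9 -0.79 (SE 0.19, adjusted p = 0.0581). Cyp2j9 read 8.33 to 8.80 on the 5 arrays with high negative controls and 6.83 to 8.36 on the others, and the part of that background in its difference was not tested.

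Without those 5 arrays, which leaves 3 CD and 10 high-fat livers, Cyp2c55 alone of the 11 passed (-1.50, adjusted p = 0.00188 from limma). Of CD at ZT18 and of HF at ZT6, only replicate 1 was left in this fit. All 11 kept a difference below 0, from -0.60 for Cyp2c23 to -1.65 for Cyp2a4. The adjusted p of the other 10 ran from 0.0952 for Cyp2c54 to 0.335 for Cyp2c23. With the negative-control median as a covariate on all arrays, 8 of the 11 kept their call, Cyp3a25, Cyp3a57 and Cyp3a59 lost it, and Cyp2c38 and Cyp2j9 were called besides. Cyp2c55 itself lay above the 95th percentile of the negative controls on only 2 arrays.

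Taken at 1 time and with 1 treatment, each comparison with CD had 3 livers a side, and HF and HFN shared the same CD livers. At ZT6 no member passed for HF or for HFN, where 0.044% and 0.0318% of clusters were called. At an unadjusted p under 0.05 from limma and a log2 difference over 0.32 either way, there were 18 and 14 members. Of these, 17 and 13 had a difference below 0, and 3.36% and 2.12% of all clusters met both limits. The lowest adjusted p belonged to Cyp2c55 in both, at -1.88 with an SE of 0.31 in HF livers (adjusted p = 0.0537) and -1.71 with the same SE in HFN livers (adjusted p = 0.108). Next were Cyp2a22 in HF (-0.70, adjusted p = 0.175) and Cyp2u1 in HFN livers (-1.01, adjusted p = 0.629). At ZT18 no member passed in HF livers, against 0.606% of clusters. The same unadjusted limits were met by 19 members and by 8.87% of clusters. Cyp2c23 (-1.13, adjusted p = 0.0553) and Cyp2j5 (0.47, adjusted p = 0.0612) came nearest.

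HFN livers at ZT18 were lower than CD livers in 2 members, against 1.06% of clusters called either way. The difference was -1.64 for Cyp3a11 (SE 0.33, 3.11-fold, adjusted p = 0.0319 from limma) and -2.12 for Cyp2a4 (SE 0.45, 4.35-fold, adjusted p = 0.0383). Without the 5 arrays only CD ZT18 replicate 1 was left on the CD side, so that fit cannot decide on either call. Side by side, the difference of Cyp3a11 from CD was -1.08 in HF and -0.90 in HFN at ZT6, and -0.80 and -1.64 at ZT18. The corresponding values were -1.23, -0.88, -1.85 and -2.12 for Cyp2a4, -0.86, -0.55, -0.88 and -0.91 for Cyp2c70, and -0.84, -0.59, -0.49 and -0.87 for Cyp3a16.

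NAD+ treatment was compared directly as HFN against HF. No member was called at ZT6, at ZT18 or averaged over both, and neither was any of the 65956 clusters (0%). An unadjusted p under 0.05 from limma with a log2 difference over 0.32 either way was met by 3, 2 and 2 members. The shares among all clusters were 4.07%, 2.81% and 1.8%. Counts this small out of 53 were not tested against those shares. Cyp3a13 was the one with the lowest p in the average, with 0.42 (95% interval 0.13 to 0.72, adjusted p = 0.827). Cyp2u1 followed with -0.50 (95% interval -0.93 to -0.08, adjusted p = 0.838). At ZT6 the lowest p belonged to Cyp2u1 (-0.77, adjusted p = 0.667) and Cyp2j9 (-0.81, adjusted p = 0.667). At ZT18 Cyp3a11 gave -0.84 (95% interval -1.56 to -0.13, adjusted p = 0.866), with replicate 3 of HFN inside the HF range and replicates 1 and 2 below it, and Cyp3a13 gave 0.46 (adjusted p = 0.871). All 3 of the intervals given here reach past the minimum difference of 0.32, so that these values do not show the absence of a change.

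Between day and night, 4 members differed when CD, HF and HFN were averaged, against 1.6% of clusters, with Cyp2u1, Cyp2c23 and Cyp2g1 lower and Cyp3a13 higher at ZT18. Cyp2u1, a fatty acid hydroxylase, read 9.96, 9.67 and 10.37 in CD, 9.30, 10.16 and 9.80 in HF and 9.37, 9.00 and 8.59 in HFN livers at ZT6. At ZT18 it read 8.37, 8.80 and 9.01, then 8.44, 7.86 and 8.56, then 7.73, 8.42 and 7.98 in the same order. Within each group every ZT18 liver lay below every ZT6 liver. The averaged difference was -1.23 (SE 0.16, 2.34-fold, adjusted p = 0.000715 from limma).

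Cyp3a13 read 14.53, 14.23 and 14.06 in CD, 14.04, 13.68 and 14.30 in HF and 14.12, 14.55 and 14.50 in HFN livers at ZT6. At ZT18 the values were 15.04, 15.06 and 14.56, then 14.54, 14.67 and 14.77, then 14.89, 15.02 and 15.45. Here every ZT18 liver lay above every ZT6 liver of its own group. The difference was 0.67 (SE 0.11, 1.59-fold, adjusted p = 0.00468), and by diet it was 0.61 in CD livers, 0.65 under HF and 0.73 under HFN. Cyp2c23 had 16.66, 17.39 and 17.90 as the lowest, median and highest of 9 livers at ZT6 and 15.85, 16.60 and 17.62 at ZT18 (-0.76, SE 0.14, adjusted p = 0.00951). It was thus lower both at night and under the high-fat diet. Cyp2g1, an olfactory form, read 4.21 to 4.83 at ZT6 and 3.97 to 4.17 at ZT18 without overlap, as did 0.186% of clusters in that direction, but all its values lay below the 95th percentile of the negative controls (-0.38, SE 0.05, adjusted p = 0.0014).

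**Figure D5:**
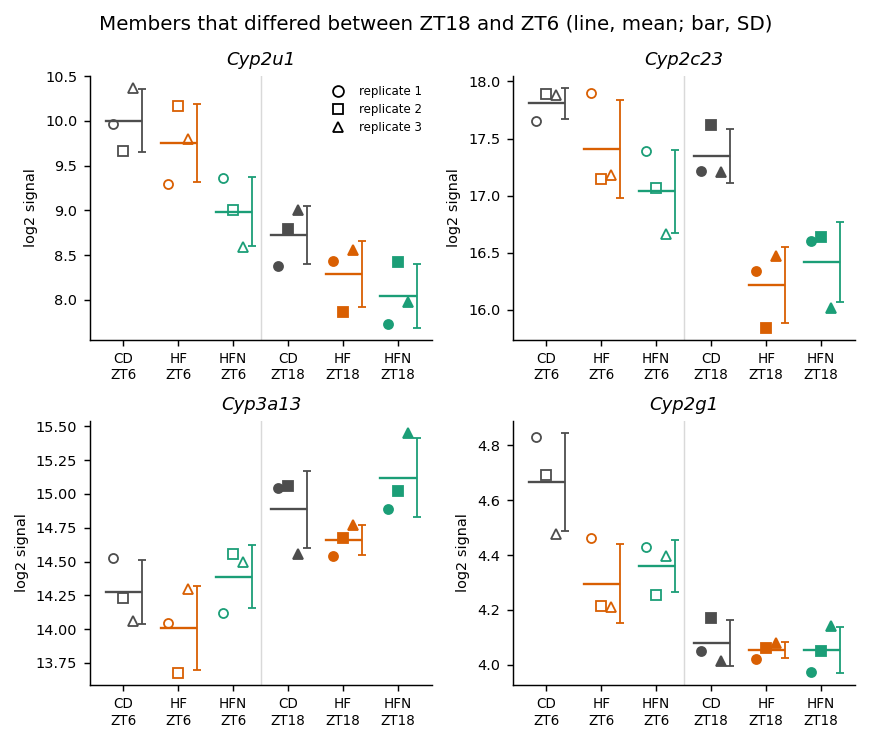
Log2 signal of Cyp2u1, Cyp2c23, Cyp3a13 and Cyp2g1 in each of 3 livers per group, with symbols for the replicate, open at ZT6 and filled at ZT18, the mean as a line and the SD as a bar. At ZT18 Cyp2u1 and Cyp2g1 lie lower and Cyp3a13 higher in each of CD, HF and HFN, and Cyp2g1 stays between 3.97 and 4.83.

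Within 1 group, Cyp2g1 passed in CD livers (-0.59, adjusted p = 0.0126, against 0.376% of clusters). Cyp2u1 (-1.47, SE 0.28, adjusted p = 0.0255) and Cyp2c23 (-1.19, SE 0.24, adjusted p = 0.0361) passed in HF livers, against 0.866%. In HFN livers none did, against 0.246%. There 9 members had an unadjusted p under 0.05 from limma with a log2 difference over 0.32 either way, against 4.11% of clusters. Cyp3a13 (adjusted p = 0.226) and Cyp2u1 (adjusted p = 0.327) had the lowest p. The day-to-night change of HF was also tested against that of CD, and that of HFN against that of HF. No member passed either test, nor did any cluster (0%). An unadjusted p under 0.05 from limma with a log2 difference over 0.32 either way was found in 7 and 4 of the 53 members. The shares of all clusters were 8.08% and 5%. In the first test the lowest p belonged to Cyp2a22 (0.98, 95% interval 0.53 to 1.43, adjusted p = 0.421) and Cyp2a12 (0.61, adjusted p = 0.426). In the second it belonged to Cyp2c65 (-0.30, adjusted p = 0.789) and Cyp2a22 (-0.53, adjusted p = 0.79). Cyp2a22 read 15.62, 15.42 and 14.98 in CD livers at ZT6 against 15.05, 14.90 and 14.90 at ZT18, and 14.60, 14.64 and 14.69 in HF livers against 14.98, 15.49 and 15.23. Both Cyp2a22 (14.98) and Cyp2a12 (18.76) repeated a value on 4 arrays, and the part of that in their differences and intervals was not tested.

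Of 20 genes that regulate or supply these enzymes, 17 were measured by a cluster with 1 symbol. Under the high-fat diets 1 was higher and 1 was lower. Ppara, the fatty acid receptor, was higher by 0.67 (SE 0.14, adjusted p = 0.0376 from limma), and Ahr, the dioxin receptor, was lower, at -0.60 (SE 0.13, adjusted p = 0.0459). The receptors Nr1i2 (0.16, adjusted p = 0.714), Nr1i3 (-0.95, adjusted p = 0.335) and Hnf4a (-0.37, adjusted p = 0.335) did not pass. Por was among the 3 without such a cluster and is not reported. From ZT6 to ZT18, averaged over the groups, 5 of the 17 were lower and 0 higher. Dbp fell by 4.55, Tef by 1.24, Cebpa by 0.87, Rxra by 0.64 and Ppara by 0.60 on the log2 scale, the first 2 being PAR bZIP factors that bind the D-box.

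Among 6 measured members known as CAR targets, Cyp2c54, Cyp2c55 and Cyp3a11 were lower under the high-fat diets and the other 3, Cyp2b10, Cyp2c37 and Cyp2c50, had differences below 0 that did not pass (-0.60, -0.32 and -0.28). Cyp2b10 was above the 95th percentile of the negative controls on 0 arrays, and Cyp2c37 and Cyp2c50 each repeated a value on 8 arrays. Of 7 measured members that female mice express more, Cyp2a4, Cyp3a16 and Cyp3a44 were lower. The other 4 did not pass, with -0.09 for Cyp2c40, -0.10 for Cyp2c69, 0.09 for Cyp2b13 and 0.46 for Cyp2b9, and the median of the 7 was -0.10 against 0.01 over all clusters. Of these 4, Cyp2b13 and Cyp2b9 were above the percentile on 0 arrays, and Cyp2c40 and Cyp2c69 each repeated a value on 6 arrays. The members that did not pass in these sets therefore cannot show that they were unchanged. Cyp2d9, which males express more, gave -0.21 and did not pass, and it repeated a value on 4 arrays. The 37 cytochromes of other families went both ways, with 4 higher and 3 lower. Cyp4a14, a fatty acid omega-hydroxylase, was higher by 6.36 and Cyp17a1 by 4.81. Cyp1a2, which metabolises caffeine, was lower, at -1.81 (SE 0.19, adjusted p = 0.000168 from limma), and the bile acid enzymes Cyp7a1 and Cyp7b1 at -1.69 and -2.15. Of the 5 hepatocyte markers measured, Alb, Apoa1, Apoa2 and Ttr each had 1 value on all arrays and could not be compared, and Tat did not pass. None of the Kupffer (7), endothelial (6), stellate (6), cholangiocyte (4) or adipocyte (4) markers passed in this comparison of the pooled high-fat groups with CD. Kupffer markers had a difference above 0 in 6 of 7, with a median of 0.39, and their mean per array ran from 7.65 to 8.83 in CD and from 8.16 to 9.42 in high-fat livers. Adipocyte markers had one in 4 of 4, with a median of 0.23, and their mean ran from 4.46 to 4.52 in CD and from 4.45 to 6.97 in high-fat livers. The part of these cells in the differences of the cytochromes was not tested. Of 4 pericentral markers 3 had a difference below 0, with a median of -0.33, and Cyp1a2 passed as lower. Of 4 periportal markers Ctsc was higher and Hal lower. In HFN against CD at ZT18, the endothelial marker Lyve1 was higher and the pericentral markers Cyp1a2 and Slc1a2 were lower. The part of these markers' cells in the cytochrome values was not tested either.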

How the data were processed

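The deposited values were log2 signals per transcript cluster that the authors derived from the scanned Clariom D arrays using default settings of the Transcriptome Analysis Console. Probe summarisation and genome build: not given in the sources used here. All 65956 clusters were tested without a filter on low signals, and the remaining 6732 of 72688 entries, control probe sets, were left out. Symbols came from the platform annotation: 30638 clusters had 1 symbol, 2176 several, and 33142 were unnamed here. All 53 members matched RefSeq by Entrez ID.

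A mean per group was fitted with limma 3.58.1 in R 4.3.3 on all 18 arrays (12 residual and 2.28 prior degrees of freedom), with 14 contrasts and p-values adjusted over all clusters. The procedure was tested on simulated data. The number of arrays limits the precision. Promoter windows came from RefSeq, GRCm38.p6.

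Members and lists were chosen with earlier results of these data known. Named with values were every called member, the 2 lowest p where none was called, members at the ceiling and the highest and lowest mean of each family. The text also names members chosen after their values were seen, such as Cyp2c38, Cyp2j9 and Cyp2b9. The alternatives were quantile normalization, brighter clusters only, no minimum fold, an intensity trend with a robust prior, the replicate number as a block, a negative-control covariate, leaving out the 5 arrays with high negative controls, a fit on the compared groups alone, and leaving out each array in turn.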

Additional observations from a re-analysis of the deposited data

How the results depend on the processing

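None of the 20 called differences changed sign under any alternative run on it. Of 708 differences that were not called, 322 changed sign under at least 1, among them that of Cyp3a13 between the diets (-0.03). The 4 day-to-night calls of the averaged groups held in every alternative run on them. The 11 calls under the high-fat diets were less stable. Leaving out each array in turn gave 6 (without CD ZT6 replicate 1 or CD ZT18 replicate 2) to 12 (without HFN ZT6 replicate 1), and Cyp2a4, Cyp2c55, Cyp3a11 and Cyp3a16 were called in all 18 such fits, whereas Cyp3a25 was called in 3, Cyp3a59 in 4, Cyp2c54 in 5, Cyp3a57 in 6 and Cyp3a44 in 14. Cyp2c70 lost its call without CD ZT6 replicate 1 (adjusted p = 0.0513 from limma) and Cyp2c23 without CD ZT6 replicate 3 or CD ZT18 replicate 2. Without the 5 arrays with high negative controls the count was 1.

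Leave-one-out counts ran from 0 to 2 for night against day in CD, 0 to 3 in HF, 0 to 1 in HFN and 4 to 7 averaged. They ran from 0 to 2 for HF against CD at ZT6 and 0 to 5 at ZT18 (5 without CD ZT18 replicate 1), and from 0 to 1 for HFN against CD at ZT6 and 0 to 4 at ZT18 (4 without HFN ZT18 replicate 3, when Cyp3a11 had -2.18). They were 0 in all 18 fits for HFN against HF and for both changes of the day-to-night difference.

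For the high-fat diets together, quantile normalization kept 7 of the 11 and lost Cyp2c54, Cyp3a25, Cyp3a44 and Cyp3a57, with Cyp2c38 and Cyp2j9 added. The intensity trend with a robust prior kept 8 and lost Cyp2c54, Cyp3a25 and Cyp3a59, and brighter clusters only kept all 11 and added Cyp2c38 and Cyp2j9. Quantile normalization gave 1 member for HF against CD at ZT18. With brighter clusters only, the counts were 0 for night against day in CD, 1 for HF against CD at ZT6 and 2 at ZT18. The intensity trend with a robust prior gave 1 for night against day in HF and 1 for HF against CD at ZT6. The covariate gave 2 for night against day in CD, 0 in HF, 1 for HFN against CD at ZT6 and 0 at ZT18. Without the 5 arrays, HFN against CD at ZT6 gave 1. Night against day in CD and HF, HF against CD at ZT6 and HFN against CD at ZT18 had replicate 1 alone in a group. Their counts are not given. Fits on the compared groups alone gave 0 for night against day in CD, 1 in HF and 0 for HFN against CD at ZT18, with fewer arrays to estimate the spread. The share of all clusters called in each alternative fit is not given here, so a shift in a count cannot be assigned to the members alone. The causes of these shifts were not tested.

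The labels number replicates 1 to 3 in every group and do not say whether a number pairs livers between groups. Deviations from the group means correlated from -0.51 to 0.57 between livers of the same number (45 pairs). Between livers of other numbers they ran from -0.65 to 0.47 (90 pairs). The best correlation was with the own number in 8 of 18 livers. Whether the numbers stand for a pairing cannot be told from these values. With the replicate block, 1 member was called for HF against CD at ZT6. For the high-fat diets together it called 9, of which 8 were among the 11, with Cyp3a25, Cyp3a57 and Cyp3a59 lost and Cyp2c38 added. The mean of all clusters of a symbol was not run as an alternative, since each member had 1 cluster.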
